A study of Homo sapiens with 10 samples.

Results

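Immediate early genes are the genes that cells transcribe within minutes of a growth factor, a cytokine or a stress, without first making new protein. The 10 examined here are FOS, FOSB, FOSL1, JUN, JUNB, EGR1, IER2, IER3, ATF3 and MYC, chosen by gene symbol from the deposited table of transcript abundance, which holds 65003 entries. All 10 were found, on 15 entries, because IER3 is listed 6 times. Of these IER3 entries, 5 were at 0 in all 4 libraries, and the remaining one, on chromosome 6, was used.

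The RNA-seq libraries, 2 named control and 2 named oeDAZL, were made from H9, a human embryonic stem cell (hESC) line. The oeDAZL libraries are labelled as human primordial germ cell-like cells (hPGCLCs) that overexpress DAZL, an RNA-binding protein of germ cells. The control libraries are labelled wild type and spontaneously differentiated, whereas the design text and the paper treat them as PGCLCs, so DAZL and the state of the culture cannot be told apart as sources of a difference. The paper's methods for overexpression treat hESCs with BMP4 and BMP8a, transduce them with lentivirus, and collect the cells for analysis on a flow cytometer. For the miRNA libraries the methods name a DAZL-GFP virus, a control GFP virus and collection by cell sorting. Whether the RNA-seq controls received the control virus, and whether the RNA-seq cells were sorted, is not given in the sources used here. No label says that the replicates came from separate cultures, so the P-values measure only the spread between these libraries, which may be technical.

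In the check of the labels, DAZL stood at 0 and 0.0333 TPM in control and at 102 and 101 TPM in oeDAZL. Of the 11 PGC markers examined, TFAP2C was at 44.3 to 53.9 TPM over the 4 libraries and SOX17 at 2.52 to 3.35 TPM, while NANOS3 was at 1.39 and 1.66 TPM in control and at 1.07 and 0.732 TPM in oeDAZL, and DDX4 was listed at 0 in all 4. SOX15 was at 59.2 to 73.2 TPM and KIT at 6.23 to 7.70 TPM. Of the 8 markers tested, PDPN, podoplanin, was higher at an unadjusted p = 0.0499 in limma (5.02% of all tested genes were higher at a P-value of at most 0.05 and 15.2% lower), at 32.9 and 49.7 TPM in control and at 58.5 and 52.5 TPM in oeDAZL, and the other 7 had estimates below 0 with P-values above 0.05. The 11 markers summed to 178 and 174.9 TPM in control and to 176 and 179.98 TPM in oeDAZL. TPM scales each library to the same total and does not retain the number of reads, so depth is unknown here and the precision was taken from the spread between replicates. In bulk RNA, a change in the share of a cell type and a change in the RNA per cell cannot be told apart.

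The products of most of these genes are transcription factors. FOS, FOSB and FOSL1 pair with JUN or JUNB through leucine zippers to form AP-1, which binds DNA at the sequence TGANTCA. Growth factor signals reach FOS and EGR1 mainly through the RAS-ERK kinases, which act on the serum response factor SRF and its ternary complex partners (such as ELK1) at the CArG box, and through CREB at the cAMP response element, TGACGTCA or its core TGACG. Stress kinases of the JNK and p38 groups act on JUN and ATF3. The mRNAs are short lived, and the genes are also known to respond to the handling and sorting of cells.

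Known response elements were searched in the promoters of these genes. The RefSeq table of promoters (GRCh38.p14, from 250 bases before to 50 bases after a gene's start) matched 7 of the 10 genes. FOSL1, IER3 and MYC were not matched. Motifs were searched on both strands. The core cAMP response element TGACG was found in 6 of the 7 genes, and in 24.6% of all 35116 promoters. Within these windows only EGR1 held CArG boxes, which occur in 1.29% of all promoters. Elements more than 250 bases before a start, in FOS or any other gene, lay outside the search. The full element TGACGTCA (1.85% of all promoters, each also counted under TGACG), the AP-1 site TGANTCA (7.71%), the EGR site GCGTGGGCG (0.794%) and the E-box CACGTG (7.26%), at which MYC binds with MAX, were in none of the windows of the 7 genes, which says only that these letters are not in these windows. The 2 windows of ATF3, on chromosome 1 at 212565157 to 212565456 and at 212614768 to 212615067, held none of the motifs.

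The stretches before the start site that carry these motifs are printed 5′ to 3′ on the gene's own strand. They show how closely the elements found in the window of EGR1 are packed, beside the single elements found in the windows of the others. Capitals mark TGACG, which reads CGTCA on the opposite strand, and, in EGR1, the CArG boxes.
EGR1 (chr5:138465329-138465432, forward strand, bases −150 to −47): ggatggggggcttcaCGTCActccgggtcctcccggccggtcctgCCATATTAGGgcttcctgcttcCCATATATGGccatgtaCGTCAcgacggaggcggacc
FOS (chr14:75278749-75278783, forward strand, bases −79 to −45): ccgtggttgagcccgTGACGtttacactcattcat
FOSB (chr19:45467921-45467955, forward strand, bases −75 to −41): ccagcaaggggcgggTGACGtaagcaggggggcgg
JUN (chr1:58784151-58784185, reverse strand, bases −138 to −104): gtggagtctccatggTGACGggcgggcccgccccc
JUNB (chr19:12791334-12791368, forward strand, bases −152 to −118): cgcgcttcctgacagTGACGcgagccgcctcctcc
IER2 (chr19:13150256-13150290, forward strand, bases −155 to −121): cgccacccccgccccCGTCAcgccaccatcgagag

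In EGR1 the CArG boxes lie at bases −105 to −96 and −83 to −74, between core elements that begin at bases −135 and −66. The core element begins at base −64 in FOS and at base −60 in FOSB, but at base −123 in JUN, −137 in JUNB and −140 in IER2, so that the FOS and FOSB elements lie closest to the start. No match was taken as a bound site, and the data hold no measure of binding.

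All 10 genes were expressed, with mean TPM over the 4 libraries from 6.08 for FOSB to 112 for JUN. By this level per transcript length, the order was JUN, ATF3, IER2, FOS, MYC, EGR1, FOSL1, JUNB, IER3 and FOSB. The ranges over the libraries did not overlap between JUN and ATF3, between FOS and MYC, between MYC and EGR1, and between JUNB and IER3. The neighbours ATF3 and IER2, IER2 and FOS, EGR1 and FOSL1, FOSL1 and JUNB, and IER3 and FOSB overlapped. The 10 genes together summed to 402 and 412 TPM in control and to 441 and 432 TPM in oeDAZL.

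**Figure D1:**
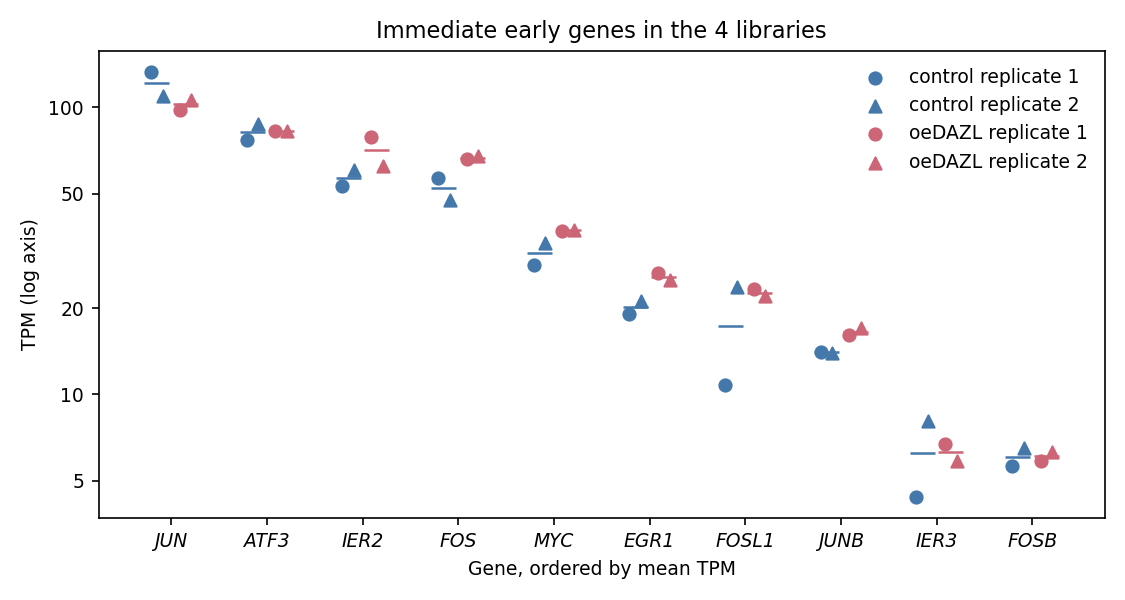
TPM of the 10 immediate early genes (log axis) in each library, ordered by mean TPM, with circles for replicate 1, triangles for replicate 2 and lines at the group means (n = 2). FOS, EGR1, MYC, JUNB and IER2 had both oeDAZL libraries above both control libraries, JUN had both below, and FOSL1 and IER3 show a low value in control replicate 1.

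The comparison of oeDAZL with control asked whether these genes were expressed differently once DAZL was overexpressed. It was fitted over the 16687 genes that averaged 1 TPM or more, on the log2(TPM + 1) scale with limma, and calling a gene required a 2-fold change or more together with a P-value, before adjustment, no higher than 0.05. None of the 10 genes was called, whereas 0.126% of all tested genes were called higher and 0.563% were called lower. Without regard to fold change, 4 of the 10 (FOS, EGR1, MYC and IER2) were higher at an unadjusted P-value of at most 0.05 in limma, against 5.02% of all tested genes, and none was lower, against 15.2%. None had a Benjamini-Hochberg adjusted p under 0.05, which 0.0599% of all tested genes had. The oeDAZL pair lay wholly above the control pair for 5 of the 10 (16.0% of all tested genes) and below them for 1 (38.4%).

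The median log2 fold change of the 10 genes was 0.24, against −0.08 for all tested genes. For 9 of the 10 the estimate was above 0, against 34.7% of all tested genes, but the estimates of FOSB, ATF3 and IER3 were near 0. These comparators move with the scaling of the libraries. With median-of-ratios scaling 49.5% of all tested genes were above 0 (median −0.0026), and 9.95% were higher and 9.16% lower at an unadjusted P-value of at most 0.05 in limma. With quantile normalization 51.2% were above 0 (median 0.0061), and 8.40% were higher and 9.07% lower. Under both scalings 9 of the 10 were above 0 and 5 of the 10 were higher at this P-value, and the shares set beside the lists are those of the TPM as deposited. The upper limit of the 95% interval (limma) lay below a doubling for 9 of the 10, the exception being FOSL1. Leaving out control replicate 1 lowered the median of the 10 to 0.037 and the number above 0 to 5. Over all tested genes the median was then −0.058, and 37.6% were above 0. Without control replicate 2 the median of the 10 was 0.31 and 9 were above 0 (34.8% of all tested genes). It was 0.197 without oeDAZL replicate 1, with 8 above 0 (36.35% of all tested genes). Without oeDAZL replicate 2 it was 0.22, with 8 above 0 (36.1% of all tested genes).

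**Figure D2:**
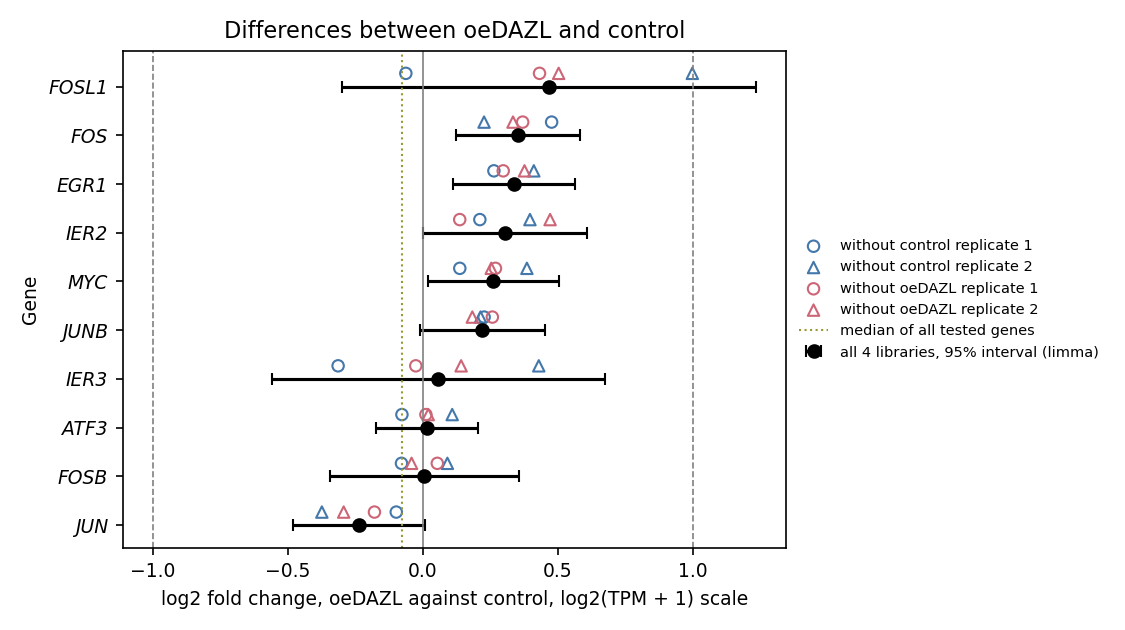
Log2 fold change of oeDAZL against control on the log2(TPM + 1) scale for each gene (black points, 95% intervals from limma, n = 2 libraries per group), with open symbols for the value when one library was left out, dashed lines at a 2-fold change and a dotted line at the median of all tested genes. The intervals of FOS, EGR1, IER2 and MYC lay above 0, and the value of FOSL1 ranged from −0.063 to 0.998 with the library left out.

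FOS, on chromosome 14 of hg38 from 75278826 to 75282230 with 4 exons, encodes the founding partner of AP-1 and is the classic marker of a recent stimulus. It was at 56.9 and 47.6 TPM in control and at 65.9 and 67.5 TPM in oeDAZL. Both oeDAZL libraries lay above both controls, and the means were 52.3 ± 6.51 and 66.7 ± 1.19 TPM (SD, n = 2). The log2 fold change was 0.35 (standard error 0.094, 95% interval 0.12 to 0.58), with an unadjusted p = 0.00923 and a Benjamini-Hochberg adjusted p = 0.140 in limma. Leaving out single libraries gave 0.23 to 0.48. Of the 10 genes it had the lowest P-value.

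FOSB, on chromosome 19 from 45467995 to 45475179 with 4 exons, encodes a close relative of FOS, whose truncated splice form is the one that accumulates on repeated stimulation and is not separated at the level of the gene. It was at 5.65 and 6.49 TPM in control and at 5.86 and 6.32 TPM in oeDAZL. The groups overlapped, with a log2 fold change of 0.0059 (standard error 0.14, 95% interval −0.34 to 0.35, limma adjusted p = 0.986). ERCC1, on the opposite strand, overlaps all 7185 bases of FOSB and was at 63.3 and 56.0 TPM in control and 49.5 and 48.9 TPM in oeDAZL. Whether reads were assigned by strand is not given in the sources used here, so reads of the pair may not be told apart and the level of FOSB is uncertain.

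FOSL1, on chromosome 11 from 65892049 to 65900573 on the reverse strand with 4 exons, encodes FRA-1, which follows FOS in a sustained response and is itself a target of AP-1. It was at 10.8 and 23.7 TPM in control and at 23.2 and 22.0 TPM in oeDAZL. A single library was low, control replicate 1, while control replicate 2 was the highest of the 4. The log2 fold change of 0.47 was the largest of the 10 genes, but its standard error was 0.31 and its 95% interval ran from −0.30 to 1.23 (limma adjusted p = 0.446). It was −0.063 without control replicate 1 and 0.998 without control replicate 2, each with a single control library, assumed to vary like the others. The value thus rests on which control library is used.

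JUN, on chromosome 1 from 58776845 to 58784048 on the reverse strand with a single exon, encodes the partner of FOS that JNK phosphorylates. It was at 133 and 109 TPM in control and at 98.2 and 106 TPM in oeDAZL. Both oeDAZL libraries lay below both controls, the closest values being 109 and 106 TPM. Its log2 fold change was −0.24 (standard error 0.10, 95% interval −0.48 to 0.0082), with an unadjusted p = 0.0559 and an adjusted p = 0.260 in limma, and −0.098 without control replicate 1. It was the only one of the 10 with a negative estimate, which remained negative under all 12 alternatives, with a value of −0.15 after median-of-ratios scaling.

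JUNB, on chromosome 19 from 12791486 to 12793315 with a single exon, encodes a JUN relative that is a weaker activator. It was at 14.1 and 13.97 TPM in control and at 16.1 and 17.0 TPM in oeDAZL. Of the 10 genes JUNB had the lowest pooled SD within groups, and the groups did not overlap. Its log2 fold change was 0.22 (standard error 0.095, 95% interval −0.011 to 0.45), with an unadjusted p = 0.0583 and an adjusted p = 0.265 in limma. JUNB lies within HOOK2 on the opposite strand, which was at 44.5 and 35.4 TPM in control and at 28.5 and 35.5 TPM in oeDAZL, so the same limit on strand holds for JUNB as for FOSB.

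EGR1, on chromosome 5 from 138465479 to 138469303 with 2 exons, encodes a zinc finger factor that is among the most direct readouts of ERK and SRF. It was at 19.1 and 21.2 TPM in control and at 26.4 and 24.9 TPM in oeDAZL. Both oeDAZL libraries were above both controls, and the means were 20.1 ± 1.53 and 25.7 ± 1.03 TPM (SD, n = 2). The estimate on the log2 scale was 0.34 (standard error 0.093, 95% interval 0.11 to 0.56), with an unadjusted p = 0.0106 and an adjusted p = 0.148 in limma. Leaving out single libraries gave 0.26 to 0.41. Its relatives EGR2 and EGR3 had under 1 TPM in every library and were not tested.

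IER2, on chromosome 19 from 13150411 to 13154911 with 2 exons, encodes a nuclear protein of the early response. It was at 53.1 and 60.5 TPM in control and at 79.0 and 62.4 TPM in oeDAZL. Only oeDAZL replicate 1 stood clear, since oeDAZL replicate 2 exceeded control replicate 2 by little. The log2 fold change was 0.30 (standard error 0.12, 95% interval 0.0016 to 0.61), with an unadjusted p = 0.0491 and an adjusted p = 0.246 in limma, and 0.14 without oeDAZL replicate 1.

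IER3, on chromosome 6 from 30743199 to 30744548 on the reverse strand with 2 exons, encodes a stress-inducible regulator of cell survival. It was at 4.41 and 8.05 TPM in control and at 6.72 and 5.87 TPM in oeDAZL. The oeDAZL libraries lay between the 2 controls. The log2 fold change was 0.058 (standard error 0.25, 95% interval −0.56 to 0.67, limma adjusted p = 0.920), and it was −0.31 without control replicate 1 and 0.43 without control replicate 2. The lncRNAs on the opposite strand, IER3-AS1 and HCG20, were at most at 0.153 TPM in any library.

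ATF3, on chromosome 1 from 212565334 to 212620777 with 4 exons, encodes a bZIP factor that stress kinases and the unfolded protein response induce. It was at 76.6 and 87.3 TPM in control and at 83.0 and 82.5 TPM in oeDAZL, again between the controls. Its log2 fold change was 0.016 (standard error 0.078), and its 95% interval of −0.17 to 0.20 was the narrowest of the 10 genes (limma adjusted p = 0.930).

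MYC, on chromosome 8 from 127735434 to 127742951 with 3 exons, encodes the bHLH factor that pairs with MAX and drives growth and ribosome synthesis. It was at 28.3 and 33.8 TPM in control and at 37.0 and 37.4 TPM in oeDAZL. The groups did not overlap, and the oeDAZL libraries were close together. The estimate on the log2 scale was 0.26 (standard error 0.10, 95% interval 0.018 to 0.50), with an unadjusted p = 0.0389 and an adjusted p = 0.224 in limma, and 0.14 without control replicate 1. CASC11, an lncRNA that overlaps MYC on the opposite strand, was at 0 in 3 libraries and at 0.150 TPM in oeDAZL replicate 2.

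How far the replicates differed was examined for each gene as the pooled SD within groups on the log2(TPM + 1) scale. Its median was 0.13 for the 10 genes and 0.11 for all tested genes. FOSL1 (0.53) and IER3 (0.38) were more variable than 97.4% and 93.4% of all tested genes, and JUNB (0.038) lay at the percentile of 12.7. The control replicates of FOSL1 differed 2.19-fold and those of IER3 1.83-fold, while the oeDAZL replicates differed 1.05-fold and 1.14-fold. In 7 of the 10 genes (FOSB, FOSL1, EGR1, IER2, IER3, ATF3 and MYC) control replicate 1 was the lowest of the 4 libraries, against 21.3% of all tested genes. Control replicate 1 was singled out with its values known. The median log2 difference of control replicate 2 from control replicate 1 was 0.18 over the 10 genes and −0.040 over all tested genes. What set control replicate 1 apart was not tested.

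**Figure D3:**
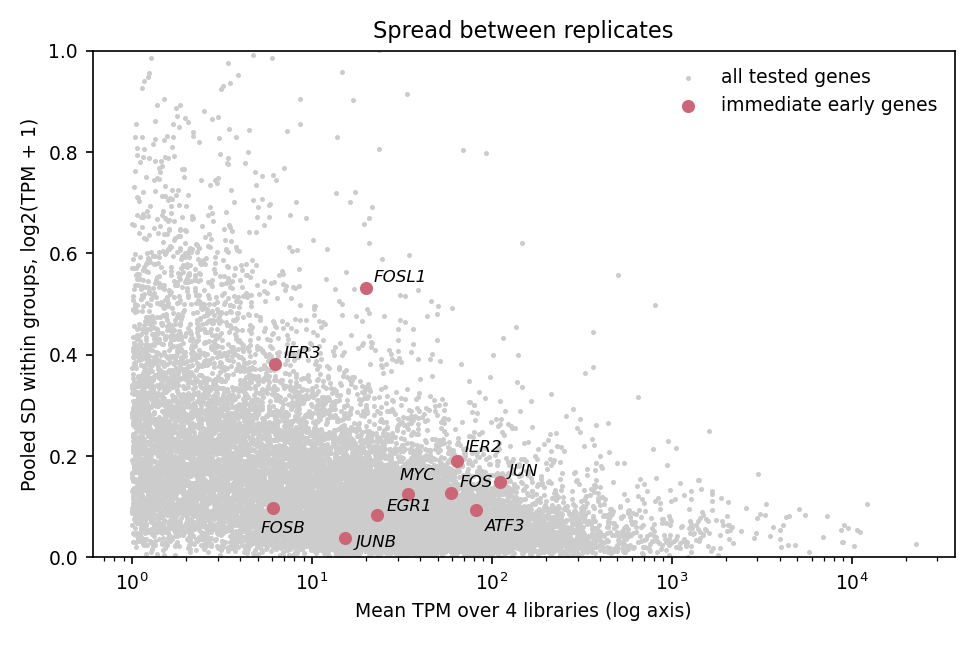
Pooled SD within groups on the log2(TPM + 1) scale against mean TPM over the 4 libraries (log axis) for the 10 genes (red) and all tested genes (grey), of which 53 lie above the plotted range. FOSL1 at 0.53 and IER3 at 0.38 lie above 97.4% and 93.4% of all tested genes, taken over all levels. The other members lie no higher than IER2, at the percentile of 74.9.

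FOS proteins bind DNA as dimers, with JUN proteins as their main partners and some other bZIP proteins as further ones. The makeup of the FOS and JUN family genes was therefore examined, with FOSL2 and JUND added. JUND was at 129 and 147 TPM in control and at 161 and 168 TPM in oeDAZL, with a log2 fold change of 0.26 (standard error 0.076, limma unadjusted p = 0.0141, adjusted p = 0.163). FOSL2 was at 52.6 and 56.8 TPM in control and at 54.1 and 51.6 TPM in oeDAZL, with a log2 fold change of −0.048 (limma adjusted p = 0.744). The JUN family exceeded the FOS family in every library. The FOS family made up 31.4% and 33.3% of the summed TPM in control and 35.1% and 33.6% in oeDAZL, and the lowest oeDAZL share exceeded the highest control share by little.

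Within the families the order of members differed between libraries. Of the JUN family, JUN made up 48.2% and 40.5% in control and 35.6% and 36.5% in oeDAZL, while JUND made up 46.7% and 54.3% in control and 58.5% and 57.7% in oeDAZL. JUN thus exceeded JUND in control replicate 1 only. The ratio of FOS to JUN was 0.428 and 0.435 in control and 0.671 and 0.635 in oeDAZL, and this ratio is free of the scaling of the libraries. Its groups did not overlap, but it combines genes seen to differ in opposite directions, and the smallest p that an exact permutation test allows with 2 libraries a group is 0.333, so it was not tested. Within the FOS family, FOSL1 made up 8.60% in control replicate 1 and 14.9% to 17.6% in the other 3 libraries.

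**Figure D4:**
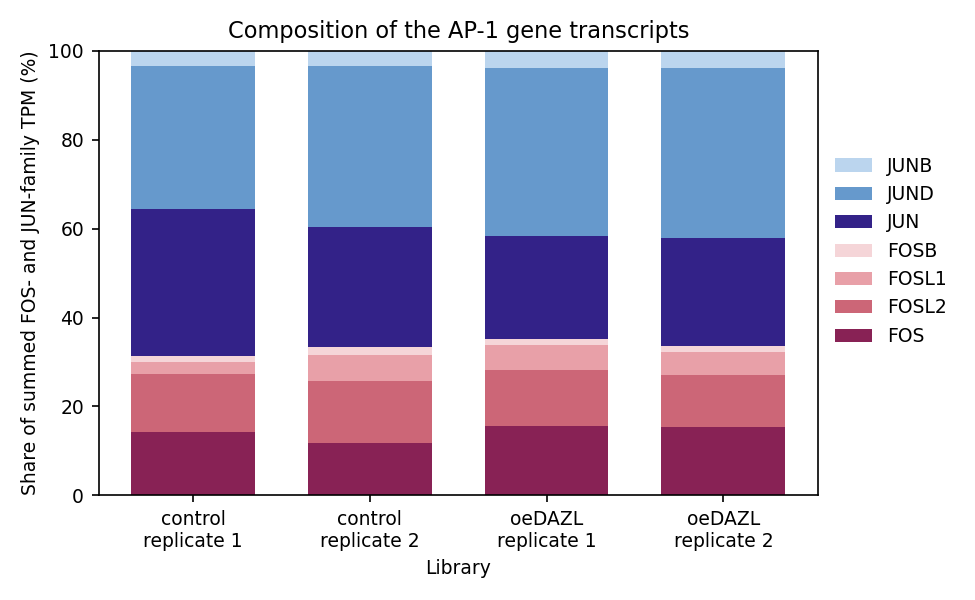
Share of each gene in the summed TPM of FOS, FOSB, FOSL1, FOSL2, JUN, JUNB and JUND, stacked for each library (%). The FOS family took 31.4% to 35.1%, the share of JUN was 33.1% and 27.05% in control and 23.1% and 24.2% in oeDAZL, and that of JUND was 32.1% and 36.2% in control and 37.97% and 38.3% in oeDAZL.

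The other genes of the early response were taken from fixed lists. Of 31 tested genes in the list named other early response genes, 8 were higher and 3 lower at an unadjusted P-value of at most 0.05 in limma, and the median log2 fold change was 0.10. Over all tested genes 5.02% were higher and 15.2% lower at this P-value, with a median of −0.08, and the counts of the lists that follow stand beside these shares. Control replicate 1 was the lowest library in 18 of these 31 genes, against 21.3% of all tested genes. RHOB, a small GTPase of the actin cytoskeleton, was at 366 and 474 TPM in control and at 682 and 665 TPM in oeDAZL, with a log2 fold change of 0.69 (standard error 0.12). SOCS3, the feedback inhibitor of cytokine signalling, was at 80.7 and 88.6 TPM in control and at 119 and 113 TPM in oeDAZL. IER5L, a relative of IER2, was at 45.9 and 48.6 TPM in control and at 64.6 and 63.2 TPM in oeDAZL. These 3 genes had a limma adjusted p = 0.0896, and none of the 31 was called.

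Of 13 tested genes in the list of EGR, KLF, NR4A and related early factors, 5 were higher and 2 lower at this P-value, with a median of 0.033. The higher ones were KLF6, HES1, ID1, ID2 and ID3, and the lower ones KLF11 and NR4A1. ID1 and ID2 encode inhibitors of bHLH factors and are direct targets of BMP signalling. ID1 was at 828 and 749 TPM in control and at 1008 and 978 TPM in oeDAZL, and ID2 at 294 and 287 TPM in control and at 367 and 379 TPM in oeDAZL. NR4A1, an orphan nuclear receptor that is induced with FOS and EGR1, was at 19.1 and 20.2 TPM in control and at 17.1 and 14.2 TPM in oeDAZL, opposite in sign to them, with a log2 fold change of −0.31 (standard error 0.11, limma unadjusted p = 0.0336, adjusted p = 0.213).

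Of the 22 tested genes of AP-1 and other bZIP factors outside the 10, 4 were higher and 3 lower at this P-value, and the median was −0.030. NFE2L1, which induces proteasome genes, was at 172 and 177 TPM in control and at 148 and 147 TPM in oeDAZL. ATF4, the most abundant gene of the list, had a log2 fold change of −0.087 (limma adjusted p = 0.405).

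The regulators upstream of these genes came next. Of the 10 factors of the SRF, TCF and MRTF list, 2 were higher at this P-value and none lower, with a median of −0.0077. SRF was at 50.4 and 57.4 TPM in control and at 53.3 and 50.2 TPM in oeDAZL. ELK1, a partner of SRF, was at 26.8 and 25.0 TPM in control and at 30.1 and 31.7 TPM in oeDAZL, and MYOCD, a muscle coactivator of SRF, at 3.65 and 4.71 TPM in control and at 6.89 and 6.61 TPM in oeDAZL. Of 18 genes of the RAS-ERK cascade, 4 were higher and 2 lower (median −0.056), and of 13 tested genes of the JNK and p38 cascade, 2 were higher and 2 lower (median −0.021). NRAS, a RAS GTPase, was at 95.7 and 104 TPM in control and at 123 and 126 TPM in oeDAZL, and MAP2K3, a kinase of p38, at 32.3 and 32.6 TPM in control and at 42.4 and 40.8 TPM in oeDAZL. The lower genes were SOS1 and MAPK3 in the RAS-ERK list and MAP2K7 and MAPK12 in the JNK and p38 list.

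Among 16 feedback inhibitors of ERK, which the same signals induce, 4 were higher at this P-value (5.02% of all tested genes) and none lower (15.2%), and the median was 0.12. DUSP2, a nuclear MAP kinase phosphatase, was the single called gene, against 0.126% of all tested genes called higher. It rose from 1.35 and 2.79 TPM in control to 7.29 and 6.96 TPM in oeDAZL, with a log2 fold change of 1.44 (standard error 0.25, limma adjusted p = 0.0896). ERRFI1, an inhibitor of the EGF receptor, was at 256 and 287 TPM in control and at 382 and 372 TPM in oeDAZL. DUSP1 was at 14.1 and 19.4 TPM in control and at 20.9 and 19.8 TPM in oeDAZL, and DUSP6, the ERK phosphatase, at 12.4 and 13.3 TPM in control and at 15.7 and 13.7 TPM in oeDAZL. Neither had an unadjusted P-value of at most 0.05 in limma (0.113 and 0.163). As for the 10 immediate early genes, control replicate 1 was often the lowest library, in 10 of these 16 genes, against 21.3% of all tested genes. In the preceding lists it was the lowest in 3 of 13 JNK and p38 genes, 6 of 18 RAS-ERK genes and 3 of 10 SRF, TCF and MRTF factors. The counts were 6 of 22 for the AP-1 and bZIP list and 5 of 13 for the EGR, KLF and NR4A list.

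Genes downstream of the factors were examined next. Of 19 tested genes of the AP-1 target list, 14 had estimates above 0, with a median of 0.16. Of all tested genes 34.7% were above 0 as deposited and 49.5% with median-of-ratios scaling. At an unadjusted P-value of at most 0.05 in limma, however, 2 of the 19 were higher and 3 lower. MMP9, a gelatinase, was at 22.5 and 24.8 TPM in control and at 31.6 and 36.4 TPM in oeDAZL. DCN, the matrix proteoglycan decorin, was the single called gene (0.563% of all tested genes were called lower) and fell, from 10.1 and 6.45 TPM to 3.05 and 3.54 TPM, with a log2 fold change of −1.08 (standard error 0.22, limma adjusted p = 0.1003). In 14 of these 19 genes control replicate 1 was the lowest library, again against 21.3%.

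Of 22 genes of the MYC target list, 5 were higher and 3 lower at this P-value, with a median of 0.073. LDHA, the glycolytic lactate dehydrogenase, was at 1022 and 1224 TPM in control and at 1411 and 1455 TPM in oeDAZL, and NCL, nucleolin of the nucleolus, at 456 and 477 TPM in control and at 536 and 542 TPM in oeDAZL. Of 16 partners of MYC, none was higher at this P-value and 5 were lower (15.2% of all tested genes were lower), with a median of −0.12, against −0.08 for all tested genes. MXD3, which competes with MYC for MAX, was at 29.6 and 30.1 TPM in control and at 19.7 and 21.3 TPM in oeDAZL, and ZBTB17, which encodes the MYC partner MIZ-1, at 32.0 and 27.7 TPM in control and at 21.3 and 22.8 TPM in oeDAZL. Neither was called. Of 11 genes for the turnover of AU-rich mRNAs, the class that includes FOS and MYC, 1 was higher at this P-value and none lower. Control replicate 1 was the lowest library in 10 of 22 MYC targets, 3 of 16 MYC partners and 3 of 11 turnover genes.

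**Figure D5:**
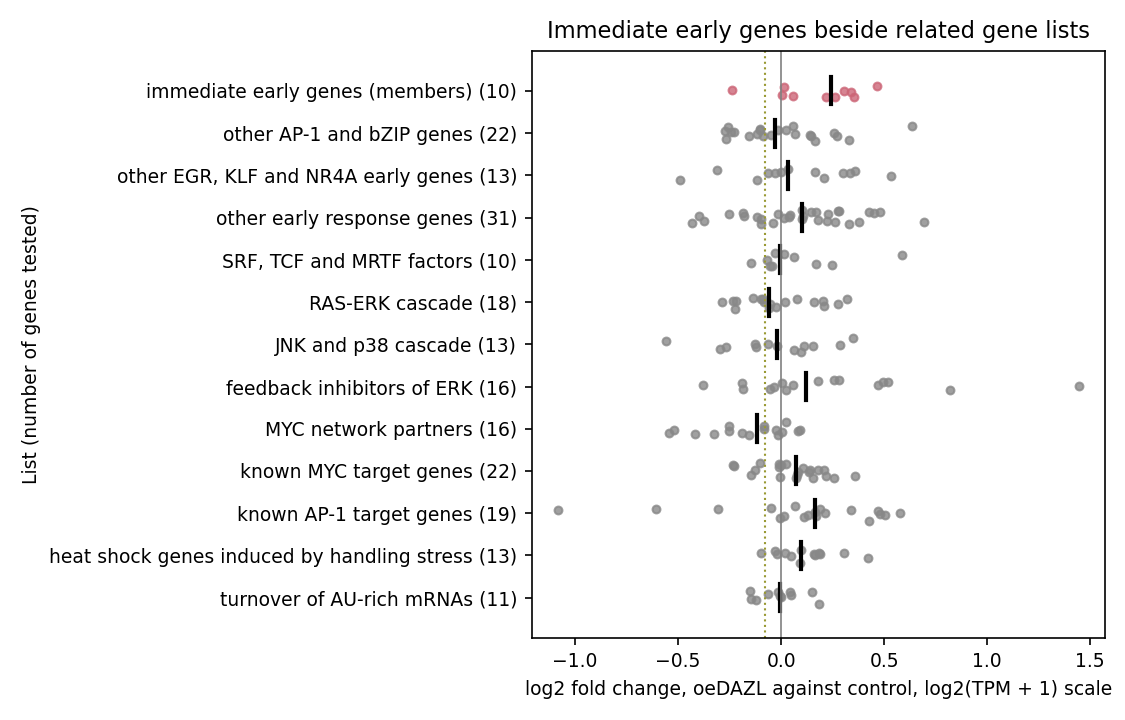
Log2 fold change of oeDAZL against control on the log2(TPM + 1) scale for every tested gene of the 10 immediate early genes (red) and of the related lists (grey), with a black bar at each list's median and a dotted line at the median of all tested genes (−0.08). The medians run from −0.12 for the MYC partners to 0.24 for the immediate early genes, and the single genes of each list spread to both sides.

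Some values that move with stress or with the mixture of cells were set beside these differences. Of 13 tested heat shock genes, which rise with handling stress, 5 were higher at an unadjusted P-value of at most 0.05 in limma and none lower, with a median of 0.099 and summed levels of 5073 and 5124 TPM in control and 5736 and 5607 TPM in oeDAZL. HSP90AA1, the inducible HSP90 chaperone, was at 738 and 750.0 TPM in control and at 1007 and 989 TPM in oeDAZL, while HSPA1A, the HSP70 gene that stress induces most strongly, was at 10.4 and 9.16 TPM in control and at 9.47 and 9.76 TPM in oeDAZL. Control replicate 1 was the lowest library in 7 of the 13 heat shock genes, against 21.3% of all tested genes. The mitochondrial share of the TPM, a sign of RNA and cell quality, was 12.6% and 13.4% in control and 14.1% and 13.9% in oeDAZL, so both oeDAZL libraries lay above both controls, and without mitochondrial genes the median of the 10 immediate early genes was 0.26. The part of the heat shock genes in the values of the immediate early genes was not tested.

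The marker lists of the cell types that such a culture could hold were read by counts and by sums, since a sum over a list is set by its most abundant genes. Of 6 tested pluripotency markers, 2 were higher at an unadjusted P-value of at most 0.05 in limma and none lower. These were POU5F1, the factor OCT4, at 13.6 and 10.6 TPM in control and at 22.4 and 20.4 TPM in oeDAZL, and TDGF1, a NODAL coreceptor, at 5.05 and 8.26 TPM in control and at 14.1 and 10.6 TPM in oeDAZL. The other 4 had estimates below 0 and both oeDAZL libraries below both controls, as 38.4% of all tested genes did. The median of the 6 was −0.092, against −0.08 for all tested genes. Of the 4 with estimates below 0, SOX2 was at 5.16 and 2.57 TPM in control and at 2.16 and 2.04 TPM in oeDAZL. LIN28A, an inhibitor of let-7 maturation, was at 476 and 428 TPM in control and at 417 and 400.6 TPM in oeDAZL. PODXL, a sialomucin, was at 579 and 610.3 TPM in control and at 575 and 554 TPM in oeDAZL. The sum of the 8 markers, most of it LIN28A and PODXL, was 1125 and 1105 TPM in control and 1072 and 1030 TPM in oeDAZL.

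Of 10 tested amnion and trophoblast markers, 1 was higher and 5 were lower at this P-value, with a median of −0.22. CGA, the alpha subunit of chorionic gonadotropin, fell from 15.5 and 10.4 TPM to 4.34 and 5.82 TPM, and CDX2, a caudal homeobox factor, was at 22.8 and 20.4 TPM in control and at 12.3 and 13.7 TPM in oeDAZL. The summed level of the 11 markers was nonetheless 4368 and 4237 TPM in control and 4555 and 4441 TPM in oeDAZL, as its largest part, IGFBP3, an IGF-binding protein, was at 1711 and 1816 TPM in control and at 2143 and 1978 TPM in oeDAZL.

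Of 5 tested neural markers, 1 was higher and 1 lower at this P-value. PAX6, a factor of neural progenitors, fell from 3.83 and 1.14 TPM to 0.0967 and 0.558 TPM, while NES, an intermediate filament that is not confined to neural cells, was at 253 and 347 TPM in control and at 440.3 and 409 TPM in oeDAZL. With NES as its largest part, the sum of the 8 markers was 456 and 595 TPM in control and 708 and 652 TPM in oeDAZL. Control replicate 1 was the lowest library for both NES and this sum, as it was for 7 of the 10 immediate early genes. However, it was the highest library in 8 of 10 tested amnion and trophoblast markers and in 6 of 8 endoderm markers. The same held for 5 of 8 mesoderm and mesenchyme markers, 5 of 8 PGC markers and 3 of 6 pluripotency markers. Of the neural markers it was the highest in 2 of 5, and of the endothelial and blood markers in 0 of 4. Over all tested genes it was the highest in 44.1%.

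Of 8 tested mesoderm and mesenchyme markers, 1 was higher and 3 were lower at this P-value, and the sum of the 10 listed was 2311 and 2205 TPM in control and 1960 and 1987 TPM in oeDAZL. COL3A1, a fibrillar collagen, fell (log2 fold change −1.25, limma adjusted p = 0.0344), and HAND1, a bHLH factor, was at 958 and 1042 TPM in control and at 1250.0 and 1247 TPM in oeDAZL. Of 8 endoderm markers none was higher and 2 were lower, among them AFP, alpha-fetoprotein, which fell from 36.3 and 13.1 TPM to 8.91 and 11.6 TPM, and the sums were 278 and 170.2 TPM in control and 172 and 214 TPM in oeDAZL. Of 4 tested endothelial and blood markers none was higher and 1 was lower, namely KDR, a VEGF receptor, and 3 of the 9 listed were at 0 in all libraries. Their sums were 54.2 and 55.2 TPM in control and 49.3 and 52.0 TPM in oeDAZL. The part of these cell type markers in the values of the immediate early genes was not tested either.

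The genes whose profile over the 4 libraries came closest to the mean profile of the 10 genes were NOP10, YBX3 and URB2, with Euclidean distances of 0.019, 0.022 and 0.023 between centred log2(TPM + 1) values. The mean profile itself was −0.20 and 0.021 in control and 0.11 and 0.073 in oeDAZL, so its lowest point was control replicate 1. NOP10, a component of small nucleolar ribonucleoproteins, was at 99.8 and 116 TPM in control and at 125 and 120.2 TPM in oeDAZL. With 4 libraries many genes share such a profile, and nothing is drawn from the likeness.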

How the data were processed

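The deposited values are TPM, which the authors computed for each gene in each of the 4 libraries. Per their methods and the submitters' processing notes, reads were trimmed with Trim Galore (0.6.4 in the notes), mapped to hg38 with HISAT2 2.1.0, kept where unique and quantified with StringTie 2.1.4. The annotation release is not given in the sources used here. The 6 miRNA-seq samples were not analysed here.

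The 45 chromosome Y copies of pseudoautosomal genes and 18 repeated entries were left out, leaving 64940 genes. A mean TPM of 1 or more over the 4 libraries was met by 16687 genes, which were fitted on log2(TPM + 1) with limma 3.58.1 in R 4.3.3 (eBayes with trend, 2 against 2 libraries, no covariates). Fold changes on this scale understate those of low genes. P-values were adjusted by Benjamini-Hochberg over all tested genes. The study used DESeq2 on counts, which were not used here, and its thresholds were applied to limma's P-values. Genes, exons and overlaps come from GENCODE 44 on hg38, and a symbol with several entries was read from the entry on a primary chromosome. Promoters come from RefSeq.

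The members and lists were chosen with earlier results of these data known. The rule for naming genes took all 10 members, from each related list every gene called or with an adjusted p under 0.05, the 2 with the lowest P-value and the 1 with the highest mean TPM, 9 fixed genes and the 3 nearest profiles. Some of these are given here only within the counts of their lists, and 1 result is not reported here. SOX2, LIN28A, SOX17, TFAP2C, KIT, DDX4, HSPA1A, SOS1, MAPK3, MAP2K7 and MAPK12 were named outside the rule, after their values were seen. The same holds for KLF6, HES1, ID3 and KLF11, and for the genes that overlap members. Alternatives were the pseudocount, the TPM filter, the scaling, the replicate block, the trend, an adjusted threshold and each library left out. Data were simulated for the comparison of oeDAZL with control over 16687 genes, with noise at the typical spread of each gene's level. Of the genes changed by 2 on the log2 scale 100% were called, and 0% of those changed by 0.5, which lie under the fold threshold. Changes near a doubling were not simulated, nor was spread beyond the typical, such as FOSL1 showed.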

Additional observations from a re-analysis of the deposited data

How the results depend on the processing

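With each library left out, the 3 remaining libraries were fitted with limma, and a lone library was assumed to vary like the others. No member was called under any alternative, and 114 of 120 values of single members kept their sign. The 6 that turned were −0.077 for ATF3, −0.079 for FOSB, −0.063 for FOSL1 and −0.31 for IER3 without control replicate 1, −0.042 for FOSB without oeDAZL replicate 2 and −0.026 for IER3 without oeDAZL replicate 1. Without control replicate 2, the opposite ends were 0.11 for ATF3, 0.091 for FOSB, 0.998 for FOSL1 and 0.43 for IER3. The members' median of 0.24 ranged from 0.037 to 0.31 with a library left out, control replicate 1 giving the lowest, and was 0.32 with median-of-ratios scaling.

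Over all genes, the 21 called higher and 94 called lower became 55 and 267 when the pseudocount was 0.1, 6 and 23 when only genes of 5 TPM or more were tested (fewer genes tested), 41 and 52 with quantile normalization, 25 and 75 with median-of-ratios scaling, and 3 and 2 with an adjusted p under 0.05 in limma. With a library left out they ranged from 35 to 87 and from 85 to 235. Apart from the filter, the cause was not tested.

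The replicate numbers only name the libraries. Deviations of same-numbered libraries correlated at −0.104. With the replicate block 26 and 99 genes were called. At an unadjusted P-value of at most 0.05 in limma 3 members were higher, against 4.015% of all tested genes higher and 12.6% lower. With the numbers crossed, a pairing chosen after seeing the data, 28 and 107 were called. At the same P-value there were then 6 members, 5 of them higher, against 6.35% of all tested genes higher and 17.7% lower. In this fit 1089 genes had an adjusted p under 0.05 in limma, against 10 with no block. The lowest adjusted p of a member was then 0.0366. Read depth is unknown, so what it limits cannot be given for single members.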
